A study of Danio rerio with 170 samples.

Results

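Expression of 7 genes of the Wnt pathway was followed in zebrafish embryos at 48 h post fertilization (hpf) across 33 chemical treatments, each set against its own DMSO group. The genes were chosen by name and matched by NCBI GeneID: 8 symbols were listed (apc, apc2, kremen1, axin2, lef1, dkk1b, ctnnb1 and sp5l), and 7 of them matched a row among the 21854 genes of the expression table. No row was matched to dkk1b, which was not analysed here. All libraries came from whole embryos, so no tissue was separated, and the study's husbandry section names the Tropical 5D wild-type line. Each of the samples newly made for the study was a pool of embryos.

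The treatments fell into 3 classes. The 10 flame retardant chemicals (FRCs) were TBBPA and TBBPA-DBPE at 4 µM, TDBPP at 3 µM, TPP at 8 µM, IPP at 19.8 µM, TBPH at 72 µM, BDE-47, TCEP and TCPP at 85 µM and TiBP at 158 µM, all set against DMSO_FRC (0.64% DMSO). The 10 AHR2 Activators act through the aryl hydrocarbon receptor. They were Retene (12.2 µM), BbF (50 µM), BjF (14.9 µM), BkF (1.9 µM), DBahP (10 µM) and DBaiP (5 µM), set against DMSO_A (1% DMSO), B[a]P at 1 µM and 10 µM against DMSO_PE50_AK (1%), 7,12-B[a]AQ (10 µM) against DMSO_PE50_BG (1%), and TCDD (1 ng/mL) against DMSO_TCDD (0.1%). The other 13 PAHs were Fluoranthene, Phenanthrene and Acenaphthene at 50 µM against DMSO_A, 9-MA, 2-MN, 1,5-DMN, Anthracene and Carbazole at 50 µM, 3-NF at 1.9 µM and 4h-CPdefP at 16.2 µM against DMSO_B (1%), DBalP at 10 µM against DMSO_PE50_AK, and 9,10-PQ at 1.2 µM and BEZO at 10 µM against DMSO_PE50_BG. Groups held 2 to 4 libraries. Treatments of 1 study share their DMSO libraries, so their log2FC values are not independent of each other.

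In canonical Wnt signaling, a secreted Wnt ligand binds a Frizzled receptor and an Lrp5 or Lrp6 co-receptor on the cell surface. Without ligand, a destruction complex built on Apc and Axin marks β-catenin for breakdown, and with ligand β-catenin accumulates, enters the nucleus and switches on target genes together with Tcf and Lef factors. In the vertebrate embryo the pathway sets the body axis and patterns the brain, neural crest and fins, and several of its own parts (axin2, lef1 and sp5 family genes) are also its targets.

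Levels are given as normalized values, that is, read numbers divided by the size factor of the library. They were compared with limma on log2(normalized value + 1), and a gene was called changed where its adjusted p was under 0.05. A differentially expressed gene (DEG) also had an absolute log2FC over 1. The 144 libraries held 6795594 to 28566824 reads (median 18023617). Markers of muscle (mylpfa), heart (myl7), blood (hbae3), skin (krt4) and lens (cryaa) were above 0 in every library, while the muscle gene ckma was at 0 in 7 libraries and at most at 10.3. Single libraries stood apart for some of the 7 genes: TBBPA replicate 2 (high kremen1 and lef1), TPP replicate 1, TCEP replicate 2, Acenaphthene replicate 4 and TCDD replicate 2 (low apc2, high ctnnb1). Results that rest on them are given with and without them.

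Over the 231 pairs of gene and treatment, 36 passed the test, 14 with a higher and 22 with a lower level in the treated embryos. Over all genes, 4.67% of the pairs of gene and treatment were called, 2.46% higher and 2.22% lower. FRCs accounted for 26 of the 36 calls, DBalP for 6, and 9-MA, Acenaphthene and 9,10-PQ for the rest. Over all genes there were 33715 calls. The FRCs with the most were TDBPP (5571), TiBP (4140), IPP (3164), TBBPA-DBPE (2583), TCEP (2049) and TBBPA (1787). The other FRCs had 734 (TPP), 543 (BDE-47), 100 (TCPP) and 15 (TBPH), and DBalP had 6118. Calls of all genes were thus also concentrated in FRCs and DBalP. The split of the 36 calls is not by itself a result about the 7 genes. DBalP, TDBPP, TiBP and IPP, which held the most calls of the 7 genes, also had the largest shares of all genes called. No member was called in the other 21 treatments, where 0% (such as 3-NF) to 7.97% (7,12-B[a]AQ) of all genes were called. With an absolute log2FC over 1, 16 of the pairs were DEGs. Of all 21854 genes, 2268 were DEGs in TDBPP, 1794 in TiBP, 1546 in DBalP, 1393 in IPP and 405 in BDE-47. In the other treatments that held these pairs, 854 genes were DEGs in TBBPA, 852 in TBBPA-DBPE, 686 in TCEP and 109 in 9-MA. The share of DEGs over all pairs of gene and treatment was not computed. Treated and DMSO libraries did not overlap in 34 of the 36 called pairs, but with groups of 2 to 4 libraries separation was not limited to calls. Libraries did not overlap in 12 treatments each for apc2, ctnnb1 and kremen1. The number was 10 each for apc and lef1, 9 for axin2 and 5 for sp5l. The share of all genes without overlap was not computed. The share of all genes called differed widely between the 12 treatments with a call: it was 28% for DBalP, 25.5% for TDBPP, 18.9% for TiBP, 14.5% for IPP, 11.8% for TBBPA-DBPE, 9.38% for TCEP, 8.18% for TBBPA, 6.22% for 9,10-PQ, 3.36% for TPP, 3% for 9-MA, 2.48% for BDE-47 and 1.4% for Acenaphthene. Calls in at least 5 of the 33 treatments, which kremen1, axin2, apc, apc2 and sp5l had, were reached by 9% of all genes.

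**Figure D1:**
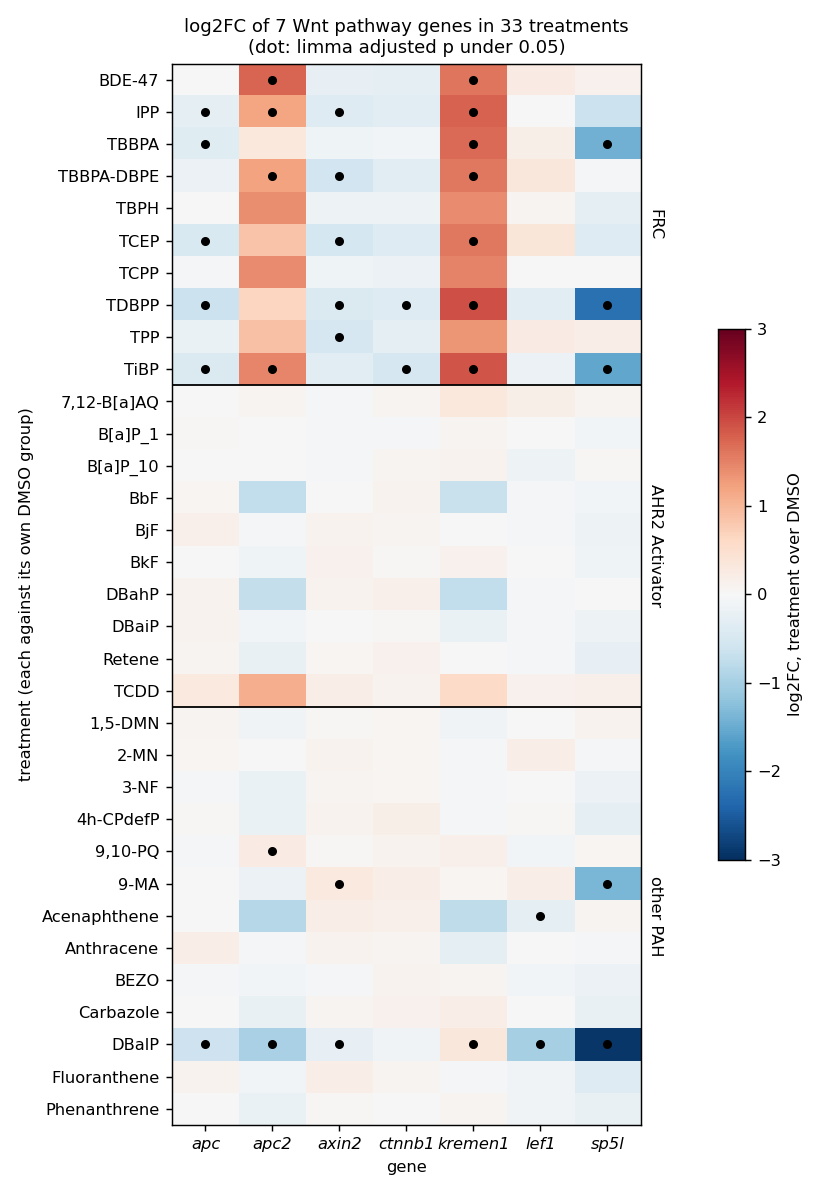
Heatmap of the log2FC of the 7 genes (columns) in the 33 treatments (rows, by class), each against its own DMSO group. Red is higher and blue is lower in treated embryos, and dots mark limma adjusted p under 0.05; kremen1 and apc2 are red in all 10 FRCs, and the darkest blue is sp5l in DBalP (log2FC -2.93).

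Kremen1 is a membrane receptor for the Dickkopf (Dkk) proteins, and it lowers Wnt signaling by helping Dkk remove Lrp6 from the cell surface. It was higher in 7 of the 10 FRC treatments and in DBalP, which made 8 calls over the 33 treatments. Of all genes, 1.92% were called in at least 8 treatments, and 0.81% were called higher in at least 7 of the 10 FRCs. The largest change was in TDBPP embryos, with 161, 313, 168 and 213 normalized reads, against 37.5, 75.5, 50.9 and 55.1 in DMSO_FRC embryos. Every TDBPP library was above every DMSO library. The log2FC was 1.94 ± 0.40 (SE), or 3.83-fold, with a limma adjusted p of 0.000395.

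TiBP (log2FC 1.88) and IPP (1.77) came next, and TBBPA (1.70), BDE-47 (1.61), TBBPA-DBPE (1.58) and TCEP (1.57) were also called for kremen1. In 8 fits that each left out 1 replicate of every treatment or every DMSO group, the call was lost in 5 for BDE-47, in 4 for TCEP and in 2 for TBBPA-DBPE, and it was kept in all 8 for TDBPP, TiBP, IPP and TBBPA. The remaining FRCs had positive values that missed the threshold: TCPP was at 1.49 (limma adjusted p = 0.119), TBPH at 1.41 (limma adjusted p = 0.168) and TPP at 1.32. Over all 39 FRC libraries kremen1 had a median of 161 (61.0 to 810), and 37 of them lay above the highest DMSO_FRC library. The exceptions were a TBBPA library at 68.9 and a TPP library at 61.0. These 39 libraries are of 10 chemicals, not replicates of 1 condition, and all are set against the same 4 controls. Such counts, here and for the genes below, are descriptive, and the share of all genes with such a pattern was not computed. TBBPA replicate 2 held the highest value of all, 810 against 68.9 to 157 in the other TBBPA libraries, and without it the TBBPA log2FC was 0.97 (limma adjusted p = 0.0468), and kremen1 was called in all 10 FRCs. With a separate fit for each treatment, in which the spread came from TBBPA and DMSO_FRC libraries alone, the TBBPA call of kremen1 was lost.

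**Figure D2:**
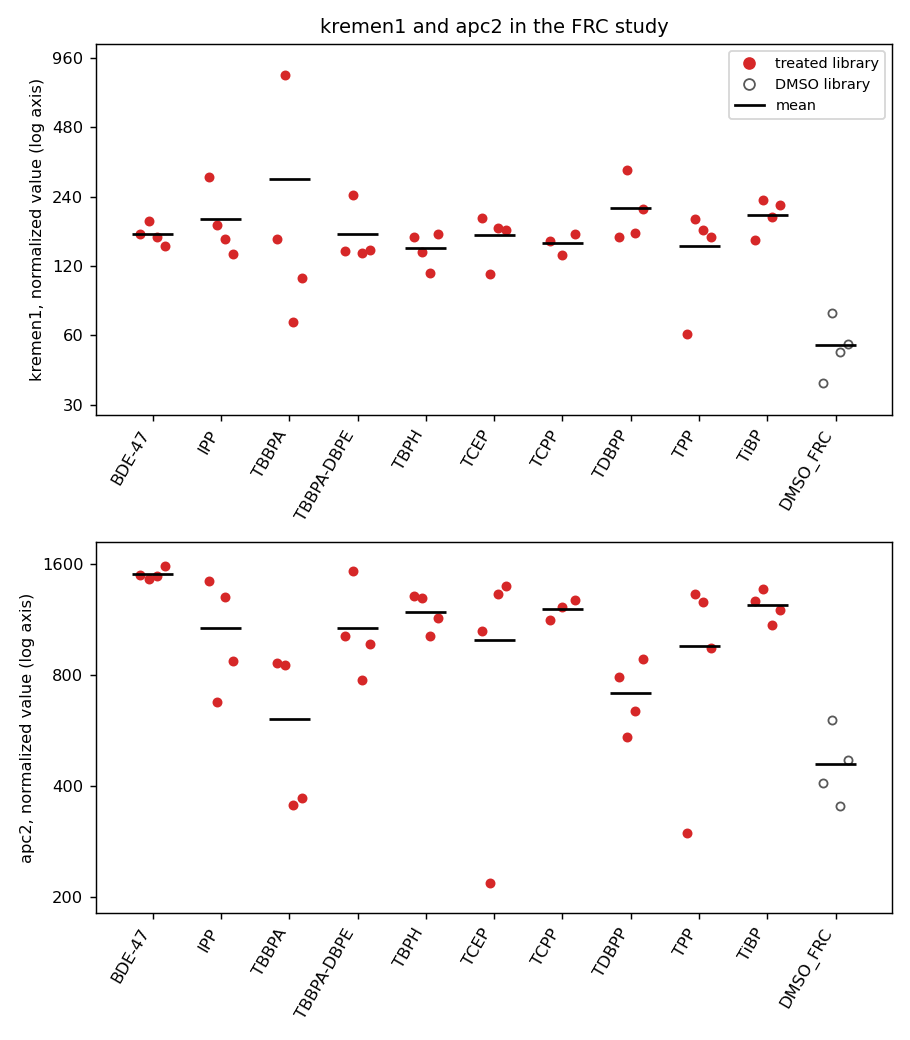
Normalized values of kremen1 (top) and apc2 (bottom) in each library of the FRC study, on log axes, with treated groups in red, DMSO_FRC as open circles at the right, and the group mean as a bar. For kremen1, 37 of 39 treated libraries lie above the highest DMSO library (75.5); for apc2, 34 of 39 lie above 603.

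The DMSO_FRC libraries were themselves low in kremen1. Their mean was 54.7 ± 15.7 (SD, n = 4), while DMSO_TCDD had 122 ± 51.9 (SD, n = 4), DMSO_B 175 ± 35.5 (SD, n = 4), DMSO_A 177 ± 20.6 (SD, n = 3), DMSO_PE50_AK 440 ± 32.9 (SD, n = 3) and DMSO_PE50_BG 479 ± 61.9 (SD, n = 3). The values were normalized together, but the studies were sequenced separately with reads of 50 bp (the studies with DMSO_PE50_AK and DMSO_PE50_BG), 100 bp or 150 bp (TCDD), so a level difference between studies cannot be told apart from a difference in sequencing. Outside the FRCs kremen1 was called only in DBalP, with 583, 561 and 525 in treated embryos, against 478, 419 and 423 in DMSO_PE50_AK embryos (log2FC 0.34 ± 0.10 SE, limma adjusted p = 0.0210). The groups did not overlap. That call was kept in 2 of 6 fits that each left out 1 library of every treated or every DMSO group.

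Apc and Apc2 are scaffold proteins of the destruction complex. Apc is found in most tissues, while Apc2 is known in mammals as a protein of the nervous system. The apc2 level was higher in 4 FRCs and in 9,10-PQ, and lower in DBalP. BDE-47 embryos had 1501, 1457, 1488 and 1585 normalized reads of apc2, against 406, 603, 352 and 472 in DMSO_FRC embryos. All 4 BDE-47 libraries were high and lay within a narrow range, and none overlapped the controls (log2FC 1.74 ± 0.39 SE, 3.35-fold, limma adjusted p = 0.00940). As for kremen1, the DMSO_FRC libraries were low in apc2: their mean was 458 ± 108 (SD, n = 4), while that of DMSO_A was 1591 ± 41.3 (SD, n = 3) and that of DMSO_B 1481 ± 113 (SD, n = 4), also sequenced with reads of 100 bp but in another study.

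The other calls of apc2 among the FRCs were TiBP (log2FC 1.45), TBBPA-DBPE (1.21) and IPP (1.19), and the log2FC was above 0 in all 10 FRCs, with a lowest value of 0.31 in TBBPA. Of the 39 FRC libraries, 34 were above the highest control library. TCEP replicate 2, at 217, and TPP replicate 1, at 299, were below every control library, whereas the other libraries of these treatments held 1053 to 1395 and 947 to 1327. When both were left out, apc2 was called in 11 treatments in place of 6. The calls for IPP and TBBPA-DBPE were each kept in 2 of 8 fits with libraries left out.

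In DBalP, apc2 fell. Treated embryos had 1285, 1544 and 1548, and DMSO_PE50_AK embryos had 2715, 2876 and 2964, so that the groups lay far apart (log2FC -0.97 ± 0.10 SE, limma adjusted p = 5.8e-06). The 9,10-PQ difference was small, 3395, 2990 and 3170 in treated embryos against 2565, 2675 and 2796 in DMSO_PE50_BG embryos (log2FC 0.25, limma adjusted p = 0.0490), and its call was kept in 1 of 6 fits with libraries left out.

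The study named 6 genes next to kremen1 in its FRC-associated module (mxd1, zgc:158689, osbpl2a, srgap3, tfe3a and cacna1da). The study built this module from co-expression in these same samples and placed kremen1 in it. A correlation of kremen1 with these 6 genes was therefore partly built into the list. Neither that correlation nor the direction of the 6 genes is independent evidence. All 6 were higher in 7 of the FRCs, 5 of 6 were in TCPP, where 0.458% of all genes were called, 3 of 6 in TBBPA and 2 of 6 in TBPH, where 0.0686% of all genes were called. Their summed level in DMSO_FRC libraries was 331 to 784. It was 1892 to 2184 in DMSO_A and 1989 to 2409 in DMSO_B libraries, which are of another study with reads of 100 bp. The medians of the FRC treatments ran from 1181 (TBBPA) to 3243 (TiBP). The 4 controls of the FRC study were thus low in these genes, as they were in kremen1 and apc2. The summed level varied between libraries of the same group, and kremen1 and apc2 varied with it. After subtracting each group's mean, the Pearson correlation over the 43 libraries of the FRC study was 0.87 for apc2 and 0.82 for kremen1, and it was -0.71 for ctnnb1, -0.70 for axin2, 0.47 for lef1, -0.43 for apc and 0.09 for sp5l. Over the 70 libraries of the study with DMSO_A and DMSO_B it was 0.91 for apc2, 0.85 for kremen1, -0.79 for ctnnb1, 0.38 for lef1, -0.26 for axin2, 0.08 for apc and 0.04 for sp5l. Over the 8 TCDD and DMSO_TCDD libraries it was 0.99 for apc2, 0.97 for kremen1, -0.93 for ctnnb1, 0.87 for apc, -0.84 for sp5l, 0.49 for lef1 and -0.41 for axin2, so that apc had the opposite sign to that in the FRC study. The values were lower for kremen1 and apc2 in the studies with reads of 50 bp: over the 12 libraries with DMSO_PE50_AK they were 0.45 for kremen1, 0.53 for apc2 and -0.73 for ctnnb1, and over the 11 libraries with DMSO_PE50_BG 0.75 for kremen1, 0.79 for apc2 and -0.21 for ctnnb1. These correlations describe libraries that share normalization, and genes that share a library.

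**Figure D3:**
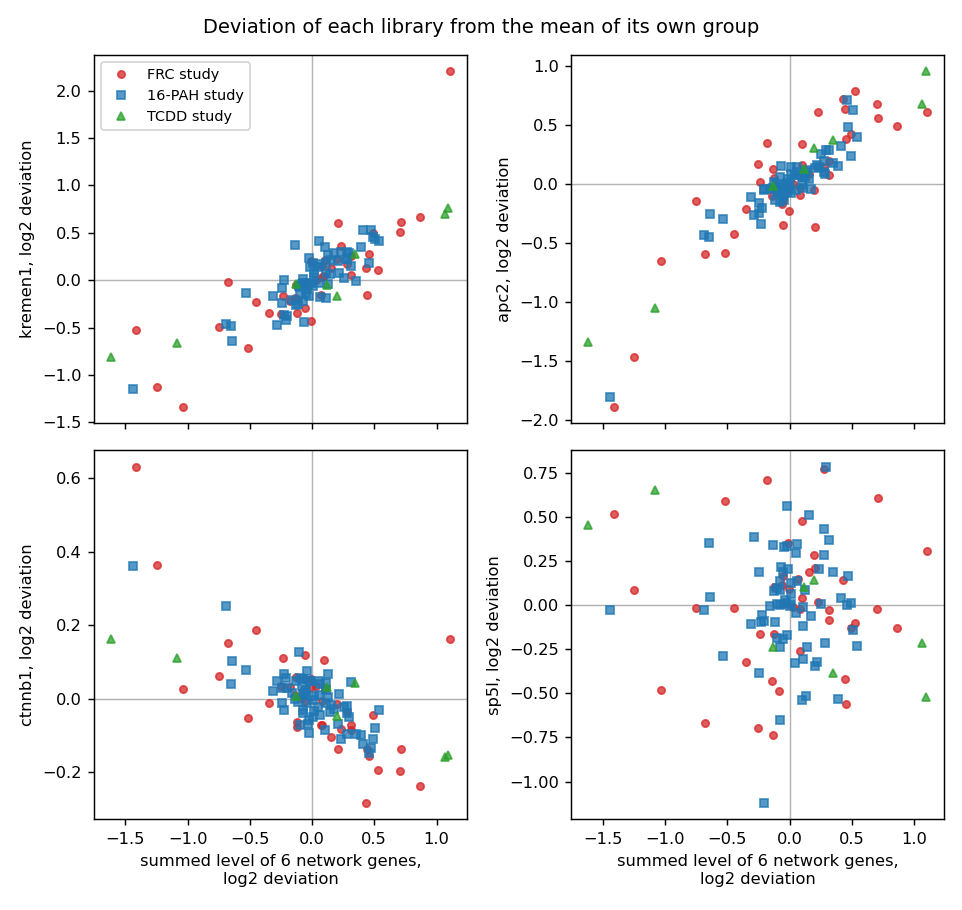
Deviation of each library from its own group mean, on the log2 scale, for the summed level of the 6 genes (x axis) and for kremen1, apc2, ctnnb1 and sp5l (y axes), in the FRC study (red), the study with DMSO_A and DMSO_B (blue) and the TCDD study (green). kremen1 and apc2 slope upward and ctnnb1 slopes downward in each study, while sp5l shows no slope in the first 2 of them (r = 0.09 and 0.04).

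When the summed level of these 6 genes was added to the fit as a covariate, a choice made after seeing the data, the 7 genes had 13 calls, of which 10 had also been made without it. The FRC log2FC of kremen1 was then 0.04 in place of 1.63 and that of apc2 was -0.53 in place of 1.11, neither of them called. The covariate was itself higher in the FRC groups, so such a fit also takes away whatever the treatments did to these genes. In DBalP libraries the summed level was 2612 to 2862, below the 3417 to 3822 of DMSO_PE50_AK libraries. Covariate and treatment are therefore hard to separate for DBalP too, and a call lost there does not show that the DBalP difference was removed. Whether a change that runs through whole libraries, a change in the share of some cells, or the chemicals themselves set the level of this group of genes was not tested, and in whole embryos fewer cells of a type cannot be told apart from less RNA per cell.

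For apc itself, calls ran in a single direction: it was lower in 5 FRCs and in DBalP. The lowest level was in TDBPP embryos, with 2972, 2541, 2818 and 3302 normalized reads, against 4542, 4808, 4559 and 4304 in DMSO_FRC embryos. No TDBPP library reached the lowest control. The log2FC was -0.65 ± 0.09 (SE), and the limma adjusted p was 9.3e-07.

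TCEP (log2FC -0.45), TiBP (-0.43), TBBPA (-0.37) and IPP (-0.30) were the other FRCs with lower apc, and 28 of the 39 FRC libraries lay below the lowest control library. BDE-47 (0.02), TBPH (0.02) and TCPP (-0.04) had values near 0. In DBalP embryos apc was at 3293, 3580 and 3544, and in DMSO_PE50_AK embryos at 5141, 5459 and 5351, again without overlap (log2FC -0.62 ± 0.08 SE, limma adjusted p = 5.6e-05). The number of treatments with apc called was 5 or 6 in the 8 fits with libraries left out, and the IPP call was lost in 4 of them. With a separate fit for each treatment, the calls in TBBPA, TCEP and IPP were lost. With the 6-gene covariate, TDBPP (log2FC -0.51) and TBBPA (-0.29) stayed called, and DBalP (-0.45, limma adjusted p = 0.186), TCEP (-0.31), TiBP (-0.24) and IPP (-0.14) did not.

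Neuron markers fell in some of the same treatments. Of 8 measured neuron genes (such as elavl3 and snap25a), 7 were lower in TDBPP, 8 in DBalP, 5 in TiBP, 4 in TBBPA and 2 in IPP, and in TCEP none was lower and 1 was higher. Of all genes, 25.5% were called in TDBPP, 28% in DBalP, 18.9% in TiBP, 8.18% in TBBPA and 14.5% in IPP. These shares count both directions: of the 5571 genes called in TDBPP 2985 were higher, and of the 6118 in DBalP 2998 were higher. Neuron genes were also lower where apc was not called. The counts were 4 in 9-MA (3% of all genes called in either direction), 4 in 9,10-PQ (6.22%), 3 in 4h-CPdefP (1.14%), 2 in Carbazole (1.21%) and 1 in BEZO (3.45%). The summed level of the neuron genes was 18085 to 30206 in TDBPP libraries, against 47453 to 51048 in DMSO_FRC libraries. It was 26347 to 30055 in DBalP libraries, against 37559 to 63115 in DMSO_PE50_AK libraries. Of 6 measured genes of neural progenitors and dividing cells, none was called in TDBPP, and 2 were higher and 1 lower in DBalP. Of the 8 measured tissue markers, 2 were lower in TDBPP, and 2 were higher and 1 lower in DBalP. The part of these shifts in the levels of apc and sp5l was not tested.

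The axin2 gene codes for a scaffold of the destruction complex that is also a direct Wnt target, and it is widely read as a marker of pathway activity. It was lower in 5 FRCs and in DBalP and higher in 9-MA. TBBPA-DBPE had the largest difference, with 843, 825, 910 and 824 normalized reads in treated embryos, against 1466, 1112, 1379 and 1117 in DMSO_FRC embryos. The treated libraries were close together and all below the controls, which were spread more widely (log2FC -0.57 ± 0.13 SE, limma adjusted p = 0.00495).

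The next largest axin2 values were TCEP (-0.52), TPP (-0.51), TDBPP (-0.43) and IPP (-0.40), and all 10 FRCs had a log2FC below 0. With the 6-gene covariate none of the 5 FRC calls was kept, and the values were -0.16 in TPP, -0.14 in TBBPA-DBPE, -0.13 in TCEP, -0.040 in TDBPP and 0.029 in IPP. None of the 39 FRC libraries, which are of 10 chemicals set against the same 4 controls, was above the highest control library, and 31 were below the lowest. The number of treatments called fell to 2 when replicate 4 of every treatment or replicate 1 of every DMSO group was left out. In 9-MA, axin2 was at 1448, 1643, 1285 and 1483, against 1309, 1064, 1213 and 1187 in DMSO_B (log2FC 0.29, limma adjusted p = 0.0330), and the groups overlapped. DBalP embryos had 831, 865 and 852, against 1036, 928 and 1041 in DMSO_PE50_AK embryos (log2FC -0.24, limma adjusted p = 0.0457). The calls for 9-MA and DBalP were kept in 2 of 8 and 1 of 6 fits with libraries left out, and neither remained when every library was rescaled to the same upper quartile.

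**Figure D4:**
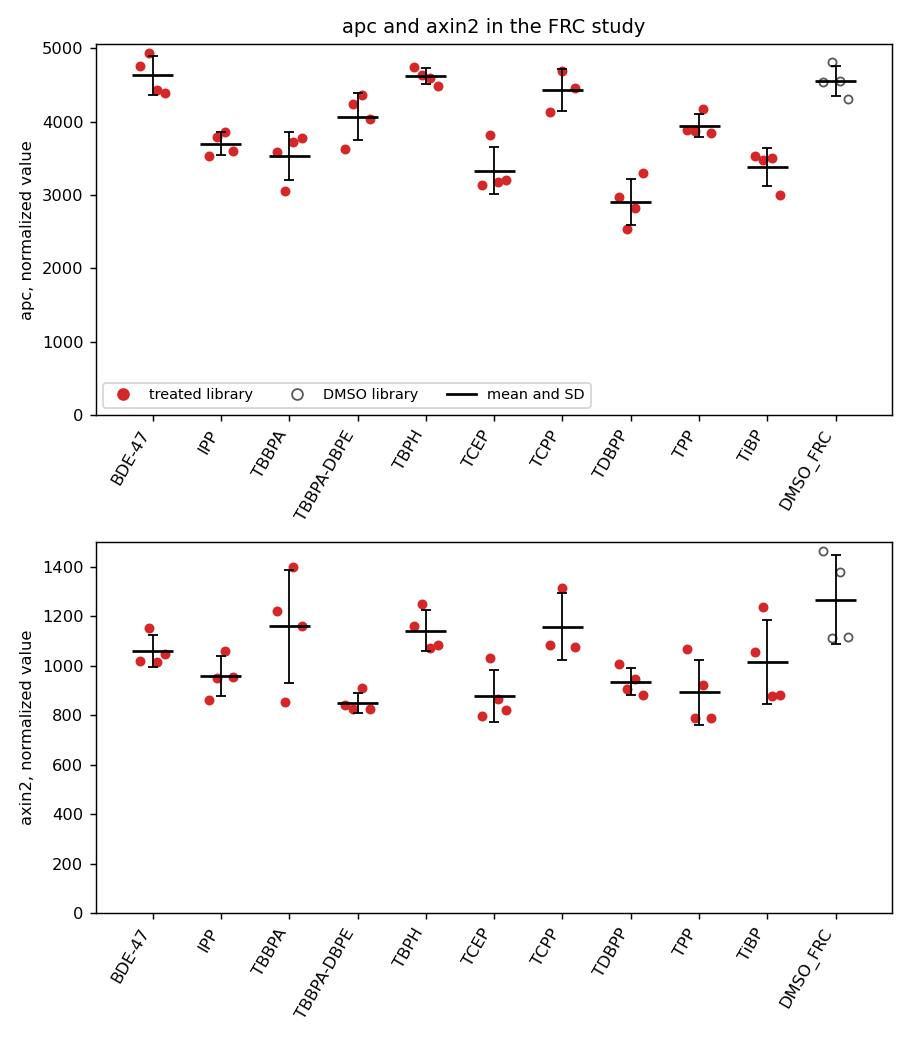
Normalized values of apc (top) and axin2 (bottom) in each library of the FRC study, on axes that start at 0, with the mean and SD of each group. For apc, 28 of 39 treated libraries lie below the lowest DMSO_FRC library (4304), and for axin2 31 of 39 lie below 1112.

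β-catenin, the effector that carries the signal to the nucleus, is encoded by ctnnb1. It was lower in TiBP and TDBPP and was not called in any other treatment. TiBP embryos had 12878, 13866, 14744 and 12935 normalized reads, against 19996, 18570, 19871 and 18248 in DMSO_FRC embryos, with a wide gap between the groups (log2FC -0.50 ± 0.13 SE, limma adjusted p = 0.00758). The TDBPP log2FC was -0.38 ± 0.13 (SE, limma adjusted p = 0.0325), and this call was lost in 5 of 8 fits with libraries left out. The DMSO_FRC mean of ctnnb1, 19171 ± 891 (SD, n = 4), was above those of DMSO_A (15677 ± 667, SD, n = 3) and DMSO_B (14909 ± 346, SD, n = 4). All 10 FRCs were below 0, and 34 of 39 FRC libraries were below the lowest control. TCEP replicate 2 (22546) and TPP replicate 1 (20492) stood above every control, and without these 2 libraries ctnnb1 was called in 7 treatments. Both TDBPP and TiBP calls were lost with the 6-gene covariate, where the log2FC was 0.02 in TDBPP and 0.05 in TiBP.

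Lef1, a DNA-binding partner of β-catenin and a target of the pathway, was lower in DBalP and Acenaphthene. DBalP embryos had 738, 704 and 653 normalized reads of lef1, against 1413, 1351 and 1412 in DMSO_PE50_AK embryos. The treated libraries were all near the same level, and the log2FC was -0.996 ± 0.09 (SE, limma adjusted p = 1.5e-06). This call held in all 6 fits with libraries left out. With the covariate, which is hard to separate from treatment in DBalP, it was close to the threshold (log2FC -0.77, limma adjusted p = 0.0449).

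In Acenaphthene lef1 was at 570, 679, 602 and 545, against 710, 706 and 769 in DMSO_A. The log2FC was -0.29 ± 0.08 (SE, limma adjusted p = 0.0468). Its replicate 4 stood apart in apc2 (251, against 1231 to 1440 in the other libraries) and kremen1 (45.9, against 117 to 149). That library also held the lowest lef1 value of the group. The lef1 call was lost in 6 of 8 fits with libraries left out (log2FC -0.35 to -0.24 over the 8). The weakest value, -0.24, was that without replicate 4 of every treatment. The call was also lost with a lane block, voom weights or a separate fit for each treatment. No FRC was called for lef1, with log2FC values between -0.31 in TDBPP and 0.36 in TCEP. TBBPA replicate 2 had 1314 reads of lef1, against 549 to 582 in the other TBBPA libraries, and lef1 was called in 5 treatments when it was left out.

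The Sp-family transcription factor gene sp5l, a target of Wnt signaling in the early zebrafish embryo, had the largest falls of the 7 genes. Its levels were low throughout, at 27.2 ± 2.43 (SD, n = 4) in DMSO_FRC and 58.6 ± 3.07 (SD, n = 3) in DMSO_PE50_AK. DBalP embryos had 11.7, 6.02 and 4.38 normalized reads of sp5l, against 58.4, 55.6 and 61.7 in DMSO_PE50_AK embryos. The fall was 7.60-fold on the log2(value + 1) scale (log2FC -2.93 ± 0.29 SE, limma adjusted p = 6.6e-06).

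TDBPP embryos had 2.69, 5.92, 5.02 and 7.32 normalized reads of sp5l, and DMSO_FRC embryos had 26.8, 24.7, 30.5 and 26.6 (log2FC -2.23 ± 0.31 SE, limma adjusted p = 1.2e-06). TiBP (6.94 to 9.31, log2FC -1.56) and TBBPA (6.43 to 14.6, log2FC -1.44) were also lower. In 9-MA sp5l was at 4.5, 11, 19.6 and 14.1, against 29.8, 25.3, 28.0 and 38.3 in DMSO_B (log2FC -1.37 ± 0.25 SE, limma adjusted p = 0.000283). Treated and control libraries did not overlap in any of these treatments.

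**Figure D5:**
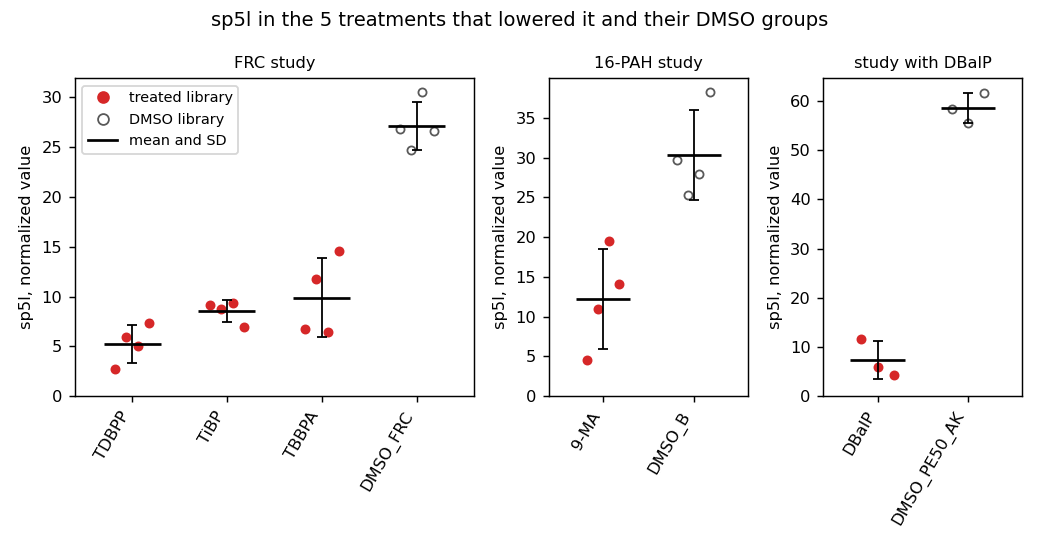
Normalized values of sp5l in each library of the 5 treatments in which it was called and in their DMSO groups (open circles, right in each panel), with the mean and SD, on axes that start at 0 and differ between panels. The highest treated library is at 19.6 (9-MA), below the lowest library of DMSO_B (25.3).

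These 5 calls of sp5l held in all fits with libraries left out and with the 6-gene covariate, where the values ran from -3.24 in DBalP to -1.37 in 9-MA. With a separate fit for each treatment the calls in TBBPA (limma adjusted p = 0.125) and 9-MA (limma adjusted p = 0.0576) were lost. The other FRCs had values of -0.65 to 0.21 that missed the threshold. Neuron markers fell in the same 5 treatments (in 9-MA, 4 of 8), with a summed level in 9-MA libraries of 38052 to 43310, against 42616 to 45726 in DMSO_B libraries. In 9,10-PQ 4 of 8 neuron markers were also lower, and sp5l was at 51.1, 58.0 and 52.5 there, against 55.9, 48.4 and 51.9 in DMSO_PE50_BG embryos. Fewer neuron markers were lower in 4h-CPdefP (3), IPP (2), Carbazole (2) and BEZO (1), where sp5l was not called.

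Averaged over the 10 FRCs, 4 of the 7 genes differed from DMSO_FRC: kremen1 (log2FC 1.63 ± 0.30 SE, limma adjusted p = 0.000392) and apc2 (1.11 ± 0.29) were higher, and axin2 (-0.34 ± 0.10) and apc (-0.26 ± 0.07) were lower. Of all genes 11.3% were called in this contrast, 6.86% higher and 4.47% lower. The sp5l (-0.63), ctnnb1 (-0.29, limma adjusted p = 0.0511) and lef1 (0.09) values missed the threshold. When replicate 1 of the DMSO groups was left out, 2 of the 4 calls were kept. The FRCs were then compared among themselves, without the shared controls, by an F test over the 10 treatments. It called sp5l, apc, lef1 and axin2, while 36.7% of all genes were called. It did not call kremen1 (limma adjusted p = 0.90), apc2 (0.0668) or ctnnb1 (0.201), and no difference in kremen1 between FRCs was detectable with these libraries. Without replicate 2 of every treatment, which takes out the TBBPA and TCEP libraries that stood apart, apc2 (limma adjusted p = 0.00320) and ctnnb1 (0.0136) were called and kremen1 (0.194) was not. The axin2 call of the F test was lost without replicate 1, 3 or 4 of every treatment (limma adjusted p = 0.115, 0.110 and 0.208). That of lef1 was lost without replicate 3 or 4 (0.0867 and 0.116). The sp5l and apc calls were kept in each of these fits. Without TBBPA replicate 2 alone, kremen1 had an adjusted p of 0.167.

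None of the 7 genes was called in any of the 10 AHR2 Activator treatments. Outside 7,12-B[a]AQ, few of all genes were called there either. The share was 7.97% in 7,12-B[a]AQ, above the 4.67% over all treatments, and between 0.151% (DBaiP) and 1.55% (TCDD) in the others. Averaged over the 6 AHR2 Activators set against DMSO_A, where 0.705% of all genes were called, the log2FC values were -0.32 for apc2, -0.25 for kremen1, -0.13 for sp5l and between -0.04 and 0.09 for the others. DBahP and BbF had the lowest kremen1 values (-0.74 and -0.68) and the lowest apc2 values (-0.72 and -0.73), with no overlap between treated and DMSO_A libraries, but with limma adjusted p of 0.107 or more. In TCDD embryos apc2 was at 1936, 479, 1499 and 1569, against 562, 1102, 620 and 274 in DMSO_TCDD embryos (log2FC 1.09, limma adjusted p = 0.24). The groups overlapped through TCDD replicate 2, and apc2 was called in TCDD when that library was left out. The 2 unexposed groups DMSO_A and DMSO_B did not differ in any of the 7 genes, and 0.0595% of all genes were called between them.

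Related compounds given at the same dose in the same study were compared directly in 6 pairs, chosen after the data had been seen, with p-values adjusted over all genes and pairs. Of the 42 differences, 8 passed the test. DBalP and B[a]P, both polycyclic aromatic hydrocarbons at 10 µM, differed in 4 genes, with 15.7% of all genes called. The DBalP minus B[a]P difference was -2.97 for sp5l (95% interval -3.60 to -2.34), -0.99 for apc2 (-1.19 to -0.78), -0.85 for lef1 (-1.04 to -0.67) and -0.64 for apc (-0.81 to -0.47). B[a]P itself moved none of the 7 genes past the threshold at either dose.

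TBBPA-DBPE, which carries brominated propyl ethers on the hydroxyl groups of TBBPA, differed from TBBPA at 4 µM in sp5l and axin2, with 17.1% of all genes called. The sp5l mean was 27.0 in TBBPA-DBPE and 9.90 in TBBPA (difference 1.38, 95% interval 0.75 to 2.02), and that of axin2 was 851 in TBBPA-DBPE and 1160 in TBBPA (-0.43, -0.68 to -0.17). The kremen1 difference of -0.13 had an interval of -0.94 to 0.69, which leaves room for sizeable differences either way. Without TBBPA replicate 2 the kremen1 difference turned to 0.61 (-0.0068 to 1.22), again not called, and lef1 also differed (0.47, limma adjusted p = 0.00864). TCPP and TCEP, chlorinated alkyl phosphates at 85 µM, differed in apc (0.41, 95% interval 0.21 to 0.61), with 2.54% of all genes called, and without TCEP replicate 2 also in ctnnb1 (0.44) and axin2 (0.48).

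9-MA, the methylated form of Anthracene, differed from Anthracene in sp5l alone (-1.32, 95% interval -1.82 to -0.82, limma adjusted p = 0.000302), and 5.22% of all genes were called. The sp5l mean was 12.3 in 9-MA embryos and 28.8 in Anthracene embryos. Between Phenanthrene and Anthracene (2.24% of all genes called) and between 1,5-DMN and 2-MN (0.206%), no member was called. Phenanthrene belongs with DMSO_A and Anthracene with DMSO_B, so their direct comparison also spans these 2 sets. Against their own DMSO groups, 3 genes were called in Phenanthrene and 0 in Anthracene. The sp5l intervals were -0.55 to 0.45 for Phenanthrene minus Anthracene and -0.35 to 0.65 for 1,5-DMN minus 2-MN.

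Of 101 other Wnt pathway genes listed by role, 89 were measured. Averaged over the FRCs, 7 of them were higher and 2 lower, a share of 10.1% that was close to that of all genes, and their median log2FC was -0.02, against 0.01 for all genes. Among 26 ligands and genes of ligand release, wnt9a (log2FC 1.30), wnt3a (1.17) and wnt16 (0.96) were higher. In DMSO_FRC, wnt9a and wnt16 were low (means of 10.3 and 7.82). Of the 10 FRCs taken singly, 1 was called for wnt9a, 5 for wnt3a and 4 for wnt16. Of 16 receptors, fzd4 (0.38), which codes for a Frizzled receptor, was higher and the co-receptor gene lrp6 (-0.42) was lower. The lrp6 value was close to the threshold (limma adjusted p = 0.0487), and 2 of the 10 FRCs were called singly. Its DMSO_FRC libraries were spread from 500 to 1096, and its FRC log2FC values ran from -0.73 to 0.03. Among 18 cytoplasmic genes only dvl3b (0.71), a Dishevelled gene, was called. The nuclear factors pygo1 (1.33) and tcf7l1a (0.47) were higher, and ctnnbip1 (-0.47), which codes for an inhibitor of β-catenin, was lower, of 9 measured. The pygo1 mean in DMSO_FRC was only 2.27, and 2 of the 10 FRCs were called for it singly. None of 15 secreted or membrane inhibitors and none of 5 target genes was called. By treatment, 29 of the 89 were called in TDBPP (15 higher, 14 lower) and 24 in DBalP (5 higher, 19 lower). These were shares of 32.6% and 27.0%, against 25.5% and 28.0% of all genes. In the 6 AHR2 Activators, notum1b, a gene of the Notum family of Wnt deacylases, was the only one called, with group means of 266 to 367, against 139 to 238 in the DMSO_A libraries (log2FC 0.71, limma adjusted p = 0.00346).

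Over all 144 libraries, with each library taken relative to its study's mean, the genes closest in pattern to each member were found by Pearson correlation. For apc2 they were mapk8ip2 (0.95), kcnh7 (0.93) and frmpd1b (0.93), and for kremen1 insrb (0.87), atp9a (0.86) and mcu (0.86). For sp5l they were six7 (0.81), neurod1 (0.78) and tfap2b (0.78). For ctnnb1 smu1a (0.81), ilf2 (0.77) and ppp2r1ba (0.77) came closest, and for lef1 brsk2b (0.79), ebf1b (0.77) and nrxn3a (0.76). The closest genes to apc were tet3 (0.79), igsf9b (0.78) and pou4f2 (0.78), and those to axin2 were hira (0.75), vps35 (0.73) and ywhaba (0.73). These correlations describe libraries that share treatments and normalization.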

How the data were processed

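RNA-seq of zebrafish whole embryos at 48 hpf was analysed from 1 table of 21854 genes and 170 entries. The log2 values the authors deposited are variance stabilized (STAR, HTSeq, DESeq2 and GRCz11 are named in the submitters' processing notes, versions not given in the sources used here), after genes with many zero counts had been removed. They were turned back to normalized values, which gave whole reads within 0.05 for 100.0% of values. Entries sharing a lane and index were averaged, leaving 144 libraries: 31 such pairs differed by no more than sampling noise (ratio 0.988 to 1.1, against 1.79 to 43.2 for 22 pairs of different libraries).

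Treatments were compared with their own DMSO group by limma 3.58.1 (R 4.3.3, trend, two-sided), with 1 fit per study on log2(normalized value + 1) and Benjamini-Hochberg adjustment over all genes per treatment. Fold changes of low genes are understated on this scale. The fit was tested on simulated data. Tables and figures used Python 3.11.15, pandas 2.3.3, numpy 2.4.6 and matplotlib 3.10.9. Nothing but the labels marks replicates as separate samples, so p-values measure the spread between these samples.

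The members and lists were chosen with earlier results of these data known. Named for each member were the called treatments with the largest log2FC, other Wnt genes called in the class contrasts, and the 3 genes closest in pattern. Lists were the other Wnt genes, the 6 module genes, and markers of neurons, neural progenitors and embryo tissues. Alternatives were pseudocounts of 0.5 and 5, the deposited log2 values, a mean of at least 10, upper quartile rescaling, pooled reads, replicate and lane blocks, pooled DMSO_A and DMSO_B, voom, entries as replicates, 1 fit per treatment and leaving out libraries. Added after seeing the data were the 6-gene covariate, leaving out the libraries that stood apart, and the 6 compound pairs.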

Additional observations from a re-analysis of the deposited data

Results flagged for a closer look

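Of the 37 groups of 4 libraries examined for the called results, 4 held a library far from the others by Dixon's test at the 95% level, which chance alone gives in about 5% of groups. In TBBPA, replicate 2 had 810 normalized reads of kremen1, and the other libraries had 68.9 to 157. In TBBPA-DBPE, replicate 2 had 245 reads of kremen1, and the others 137 to 141. In TCEP, replicate 2 had 3811 reads of apc, and the others 3142 to 3202. In TiBP, replicate 4 had 2994 reads of apc, and the others 3476 to 3532.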

How the results depend on the processing

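Over 25 settings, 637 of 766 alternative values of called log2FC kept their call and direction, 116 lost the call and 13 changed direction. When 1 replicate was left out, the calls of the 7 genes ranged over 23 to 45, and the treatments called over 5 to 6 for apc, 3 to 10 for apc2, 2 to 7 for axin2, 0 to 4 for ctnnb1, 5 to 11 for kremen1, 1 to 3 for lef1 and 5 to 5 for sp5l. The FRC average ranged over 2 to 6 members, the F test over 2 to 6 and the other Wnt genes over 2 to 21. With 1 fit per treatment the counts were 3 for apc, 11 for apc2, 2 for axin2 and 3 for sp5l. Upper quartile rescaling gave 4 for ctnnb1, as did pooling DMSO_A and DMSO_B. A lane block gave 1 for lef1, and voom gave 1 for lef1 and 4 for the other Wnt genes. Without TBBPA replicate 2 lef1 was called in 5 and axin2 in 8. Without TPP replicate 1 and TCEP replicate 2, there were 50 calls, apc2 was called in 11, ctnnb1 in 7 and the other Wnt genes were 22.

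With the 6-gene covariate there were 13 calls: 2 for apc, 2 for apc2, 1 for axin2, 0 for ctnnb1 and 1 for kremen1, with 0 in the FRC average and 3 other Wnt genes. Directions changed for apc2 in BDE-47 (-0.041), IPP (-0.62), TBBPA-DBPE (-0.62), TiBP (-0.79) and the FRC average (-0.53), for kremen1 in BDE-47 (-0.11), TBBPA-DBPE (-0.20), TCEP (-0.042) and TiBP (-0.28), for axin2 in IPP (0.029) and the FRC average (0.045), and for ctnnb1 in TDBPP (0.020) and TiBP (0.048). The cause was not tested.

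A replicate block gave 38 calls in place of 36. Libraries with the same number showed no common deviation on average (median r 0.021 in the FRC study, range -0.56 to 0.50, against a median of -0.0067 for other pairs). A median near 0 cannot exclude that some of them are paired. The spread between libraries sets what could be called: among the FRCs, the smallest kremen1 difference that passed was 2.97-fold.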
